A study of Mus musculus with 12 samples.

Results

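The guanylate-binding proteins (GBPs) and the immunity-related GTPases (IRGs) are interferon-inducible GTPases, and 10 mouse genes of these families were followed here by symbol: Gbp2, Gbp3, Gbp5, Gbp6, Gbp7, Gbp9, Irgm1, Irgm2, Igtp and Iigp1. A row carrying exactly 1 of these symbols was found for 9 of the 10, among 22180 genes with such a row. The row of Gbp2 is shared with Gbp2b, so no value is given for it. Gbp6 stayed below the detection limit used here on all 12 arrays, which left 8 genes for testing among the 14079 genes tested. The cells were bone marrow derived macrophages (BMDMs), that is, macrophages grown from mouse marrow in medium conditioned by L929 cells. The groups were wild type cells in saline, wild type cells with R848, Rasgef1b_fl/fl_vav-icre cells in saline and Rasgef1b_fl/fl_vav-icre cells with R848, with 3 arrays in each. R848 is a synthetic ligand of the endosomal receptor TLR7 and was given in vitro for 4 h; no time is named for saline. In the Rasgef1b_fl/fl_vav-icre mice, called knockout below, a Cre recombinase driven by Vav, a gene of blood-forming cells, acts on floxed Rasgef1b, which encodes an exchange factor for Ras-like GTPases. No group with floxed alleles or Cre alone is named, and the age of the mice is not given. Nothing in the labels tells whether the 3 arrays of a group stand for different mice, so a p-value here speaks only of array-to-array spread, and the number of arrays limits the precision.

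GBPs are large dynamin-like GTPases that assemble on the membranes of pathogen vacuoles and on cytosolic bacteria and help to release microbial products to inflammasomes. IRGs are smaller GTPases: effectors such as Iigp1 (Irga6) coat the parasite vacuole and break it open, while the regulators Irgm1, Irgm2 and Igtp (Irgm3) hold the effectors inactive on the cell's own membranes. Both families are induced by interferon-gamma and, in macrophages, by the type I interferon that follows Toll-like receptor signalling.

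The promoters were read first, because both families are induced by interferon, whose signal reaches promoters through STAT and IRF factors. RefSeq windows of the 250 bases before the start site (build GRCm38.p6) were at hand for 7 of the 10 genes, Gbp3 having 2 windows. They were searched on both strands for an interferon-stimulated response element (ISRE), spelled here as GAAA, any 2 bases and GAAA again, and for a gamma-activated site (GAS), spelled TTCNNNGAA. The 5 windows below are shown because Gbp5 and Gbp7 had the largest R848 responses, and Igtp, Irgm2 and Irgm1 are the 3 regulators. Each runs 5′ to 3′ on the gene's own strand and ends at the base before the start, with matches to either motif in capitals. They lie at chr3:142496684-142496933 (plus strand) for Gbp5, chr3:142530086-142530335 (plus) for Gbp7, chr11:58199306-58199555 (plus) for Igtp, chr11:58214727-58214976 (plus) for Irgm2 and chr11:48871421-48871670 (minus) for Irgm1.
Gbp5: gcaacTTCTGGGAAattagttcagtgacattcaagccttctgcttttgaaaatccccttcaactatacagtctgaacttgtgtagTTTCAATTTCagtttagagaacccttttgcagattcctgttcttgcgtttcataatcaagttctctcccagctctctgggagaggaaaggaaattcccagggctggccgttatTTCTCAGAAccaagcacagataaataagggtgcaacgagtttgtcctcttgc
Gbp7: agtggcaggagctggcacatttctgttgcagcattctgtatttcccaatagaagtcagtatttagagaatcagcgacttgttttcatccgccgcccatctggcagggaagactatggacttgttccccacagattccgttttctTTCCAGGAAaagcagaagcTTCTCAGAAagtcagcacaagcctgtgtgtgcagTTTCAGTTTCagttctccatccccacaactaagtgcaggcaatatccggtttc
Igtp: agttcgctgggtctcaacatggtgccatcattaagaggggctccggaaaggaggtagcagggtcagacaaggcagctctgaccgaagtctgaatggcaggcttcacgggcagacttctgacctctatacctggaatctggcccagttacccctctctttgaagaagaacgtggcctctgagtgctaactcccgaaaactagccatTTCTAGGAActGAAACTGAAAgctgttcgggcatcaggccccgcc
Irgm2: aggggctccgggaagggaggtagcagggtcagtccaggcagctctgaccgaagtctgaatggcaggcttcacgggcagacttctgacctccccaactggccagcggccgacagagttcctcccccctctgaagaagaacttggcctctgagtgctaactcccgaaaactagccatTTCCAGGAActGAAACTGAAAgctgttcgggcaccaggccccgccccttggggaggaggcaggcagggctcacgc
Irgm1: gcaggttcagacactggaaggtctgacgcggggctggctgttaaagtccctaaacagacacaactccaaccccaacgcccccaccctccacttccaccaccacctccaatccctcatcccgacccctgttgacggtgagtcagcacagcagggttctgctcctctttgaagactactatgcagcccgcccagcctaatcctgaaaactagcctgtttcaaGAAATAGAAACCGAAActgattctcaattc

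An ISRE match was present in 7 of the 8 windows of these genes, a GAS match in 4, and both in 4. Among all 32851 RefSeq windows, 2.98% held the ISRE letters, 7.02% the GAS letters and 0.332% both. Among the 542 windows of genes raised at least 2-fold by R848 in wild type cells, the shares were 6.46%, 10.3% and 1.29%. This set was not cleared of the genes followed here. Its 7 windows with both motifs include those of Gbp5, Gbp7, Igtp, Irgm2 and the IRG gene Gm12250, so that share is not independent of these families. Gbp5 had its ISRE match starting 165 bases before the start and GAS matches at 245 and 52 bases. Gbp7 had GAS matches at 106 and 87 bases and an ISRE match at 53 bases. In Igtp and Irgm2 the GAS match lay directly upstream of the ISRE match, starting at 45 and 34 bases in Igtp and at 75 and 64 bases in Irgm2. This arrangement, the GAS letters, 2 further bases and then the ISRE letters, was found in 5 of the 32851 windows (0.0152%), those of Igtp, Irgm2, Gm12185, Tgtp1 and Tgtp2, all IRG genes. The arrangement was noticed in the sequences of Igtp and Irgm2 and then counted. These 2 windows share an identical run of 55 bases, starting 181 bases before the start in Igtp and 215 in Irgm2, upstream of the arrangement. All 5 windows have the letters ctagccat directly before the GAS match, so they may not be independent sequences. The windows of Irgq, Gm5431, 9930111J21Rik1 and 9930111J21Rik2, further IRG or IRG-like genes, held no match to either motif. Windows on chromosome 18 were left out when matches were listed by gene, so none is described for Gm4951, F830016B08Rik or Gm4841. Irgm1 had 2 overlapping ISRE matches, at 30 and 24 bases, and no GAS match in its window. A match is a description of the letters and not a measured binding site.

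Values are log2 intensities on the deposited scale, so a difference of 1 is a 2-fold difference; a gene was tested if it exceeded the 40th percentile of its array (4.31 to 4.35) on at least 3 arrays. Arrays of one group correlated at 0.9909 to 0.9964 over the 14079 tested genes, and arrays of different groups at 0.9159 to 0.9945, which are descriptions over genes. Rasgef1b read 9.03, 9.19 and 9.14 in wild type saline and 8.63, 7.88 and 8.72 in knockout saline, then 9.84, 9.84 and 9.69 against 9.45, 8.60 and 9.36 with R848. The knockout arrays were below the wild type arrays in both treatments, by 0.71 and 0.65, yet signal remained well above the detection limit, and replicate 2 was the lowest knockout array both times. A two-sided exact permutation test gave p = 0.1 in each treatment, the smallest that 3 against 3 arrays can give. By limma the Rasgef1b difference was not called in saline (limma adjusted p = 0.158) or with R848 (limma adjusted p = 0.333). All 11 macrophage markers measured were above the limit on all 12 arrays, with array means of 10.23 to 10.42. Markers of T cells (6 rows, 4 below the limit on all 12 arrays) averaged 4.34 to 4.44 and those of natural killer cells (7 rows, 4 below) 3.76 to 3.88.

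R848 raised the 8 tested genes in wild type cells, from 1.28-fold for Gbp9 to at least 36.7-fold for Gbp5, and raised the same 8 in knockout cells. Of all tested genes 14.6% were called higher with R848 in wild type cells and 15.6% in knockout cells, at an adjusted p under 0.05 by limma. In none of the 8 genes did the saline and R848 arrays of a genotype overlap, a pattern seen upward in 19.5% of tested genes in wild type and 19.6% in knockout cells.

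**Figure D1:**
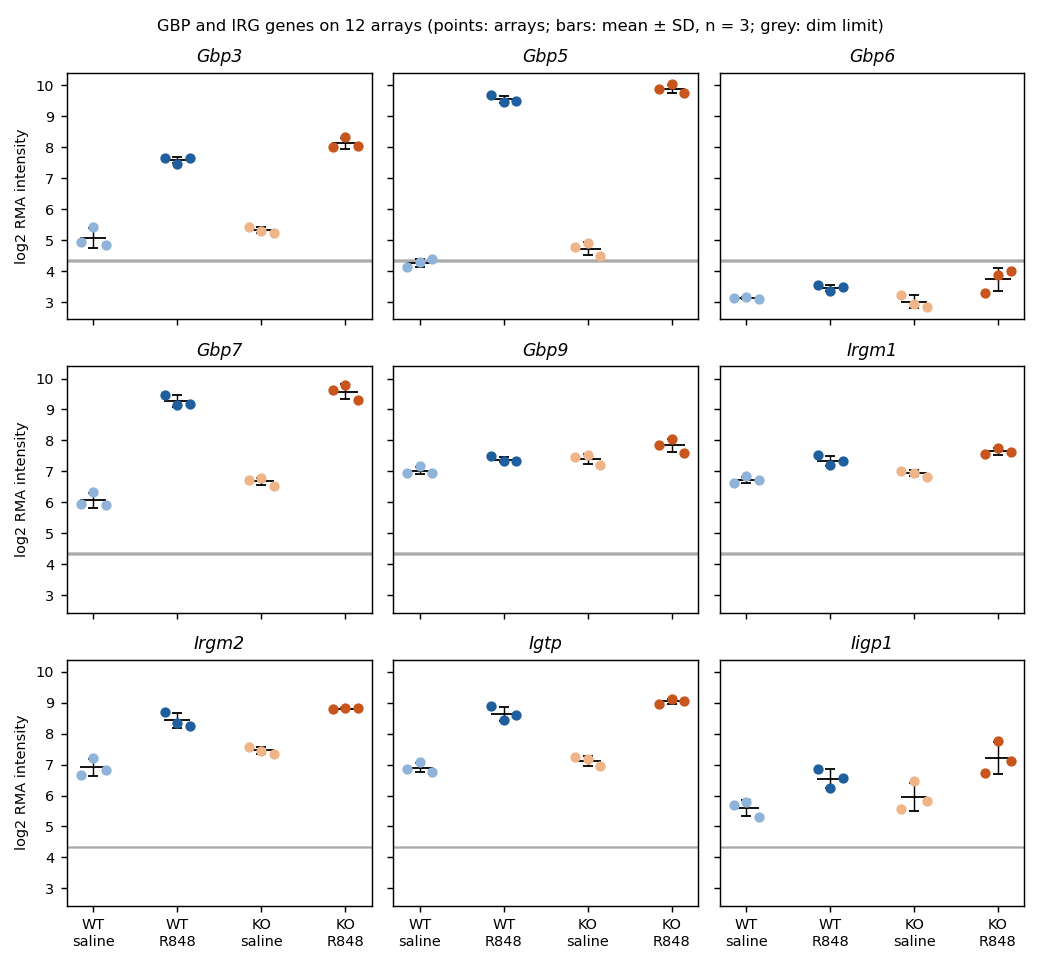
Log2 intensity of the 9 genes with a row of their own on each of the 12 arrays, by genotype and treatment; points are arrays and bars the group means. The R848 arrays of both genotypes lie far above the saline arrays for Gbp5 (9.46 to 10.03 against 4.13 to 4.90), those of Gbp9 lie above the saline arrays of their own genotype (7.32 to 7.49 against 6.95 to 7.16 in wild type cells), and Gbp6 stays below the detection limit.

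Among the GBPs, Gbp5, which promotes inflammasome assembly, moved most. Its 3 wild type saline arrays read 4.13, 4.28 and 4.40, only 1 of them above the detection limit, and the wild type R848 arrays read 9.68, 9.46 and 9.51. Knockout arrays read 4.78, 4.90 and 4.49 in saline and 9.87, 10.03 and 9.75 with R848. All saline arrays were below 5 and all R848 arrays above 9. The rise was 5.28 ± 0.11 (SE) in wild type cells (limma adjusted p = 7.55e-14) and 5.16 ± 0.11 in knockout cells (limma adjusted p = 1.03e-13), the latter 35.8-fold. Because 2 of the 3 wild type saline arrays were below the limit, the wild type rise is better read as a bound: with those arrays set to the limit it was at least 5.20, or at least 36.7-fold.

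Gbp7, a GBP placed beside Gbp5 on chromosome 3 and linked to oxidative and autophagic killing, read 5.94, 6.35 and 5.92 in wild type saline and 9.48, 9.13 and 9.17 with R848. In knockout cells it read 6.71, 6.78 and 6.54 in saline and 9.62, 9.79 and 9.31 with R848. No saline array of either genotype reached the lowest R848 array. The rise was 3.19 ± 0.14 in wild type (limma adjusted p = 1.35e-10) and 2.90 ± 0.14 in knockout cells (limma adjusted p = 3.75e-10). Gbp3, the next gene of the same cluster, read 4.94, 5.43 and 4.83 in wild type saline and 7.64, 7.46 and 7.64 with R848, against 5.42, 5.31 and 5.23 and then 8.02, 8.33 and 8.03 in knockout cells. Its groups were separated by more than 2 log2 units between treatments, and the rise was 2.51 ± 0.13 (limma adjusted p = 1.29e-09) and 2.81 ± 0.13 (limma adjusted p = 3.38e-10).

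Of the GBPs on chromosome 5, Gbp9 had a small response and Gbp6 was not detected. Gbp9 was already at 6.95, 7.16 and 6.96 in wild type saline and reached 7.49, 7.32 and 7.34 with R848. In knockout cells it went from 7.47, 7.53 and 7.21 to 7.85, 8.05 and 7.61. Within a genotype the treatments did not overlap, but the knockout saline arrays covered the range of the wild type R848 arrays. The rise was 0.36 ± 0.11 (limma adjusted p = 0.021) and 0.43 ± 0.11 (limma adjusted p = 0.00643). In wild type cells that call was lost without wild type saline replicate 1 (0.32, limma adjusted p = 0.069), when wild type saline replicate 3 was left out (0.33, limma adjusted p = 0.0691) and when wild type R848 replicate 1 was (0.31, limma adjusted p = 0.0813). Gbp6 read between 2.84 and 3.24 in saline and between 3.30 and 4.01 with R848; these values are under the detection limit on every array and were not tested.

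Of the IRG regulators, Igtp and Irgm2, which are neighbours on chromosome 11, rose more than Irgm1. Igtp read 6.87, 7.07 and 6.77 in wild type saline and 8.88, 8.44 and 8.60 with R848, and 7.23, 7.17 and 6.95 and then 8.96, 9.12 and 9.06 in knockout cells. The treatments were apart by more than 1 log2 unit at their closest arrays in both genotypes. Igtp rose by 1.74 ± 0.11 (limma adjusted p = 1.34e-08) and 1.93 ± 0.11 (limma adjusted p = 3.69e-09). Irgm2 read 6.67, 7.22 and 6.84 in wild type saline and 8.71, 8.34 and 8.24 with R848, and 7.58, 7.44 and 7.35 and then 8.79, 8.82 and 8.82 in knockout cells. Its 3 knockout R848 arrays were nearly identical, and all lay above the wild type ones. Irgm2 rose by 1.52 ± 0.13 (limma adjusted p = 3.5e-07) and 1.35 ± 0.13 (limma adjusted p = 1.07e-06).

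Irgm1, the regulator whose loss alone makes mice unable to control many intracellular pathogens, read 6.62, 6.84 and 6.71 in wild type saline and 7.52, 7.20 and 7.32 with R848. In knockout cells it read 7.02, 6.96 and 6.83 and then 7.55, 7.76 and 7.64. The treatments stood apart, by less than in Igtp or Irgm2. Irgm1 rose by 0.62 ± 0.096 (limma adjusted p = 9.2e-05) and 0.71 ± 0.096 (limma adjusted p = 2.34e-05). The effector Iigp1 read 5.68, 5.80 and 5.31 in wild type saline, 6.86, 6.23 and 6.55 with R848, 5.58, 6.46 and 5.82 in knockout saline and 6.74, 7.77 and 7.11 with R848. Knockout replicate 2 was the highest array of its group in both treatments. Iigp1 rose by 0.95 ± 0.25 (limma adjusted p = 0.00741) and 1.25 ± 0.25 (limma adjusted p = 0.000924).

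**Figure D2:**
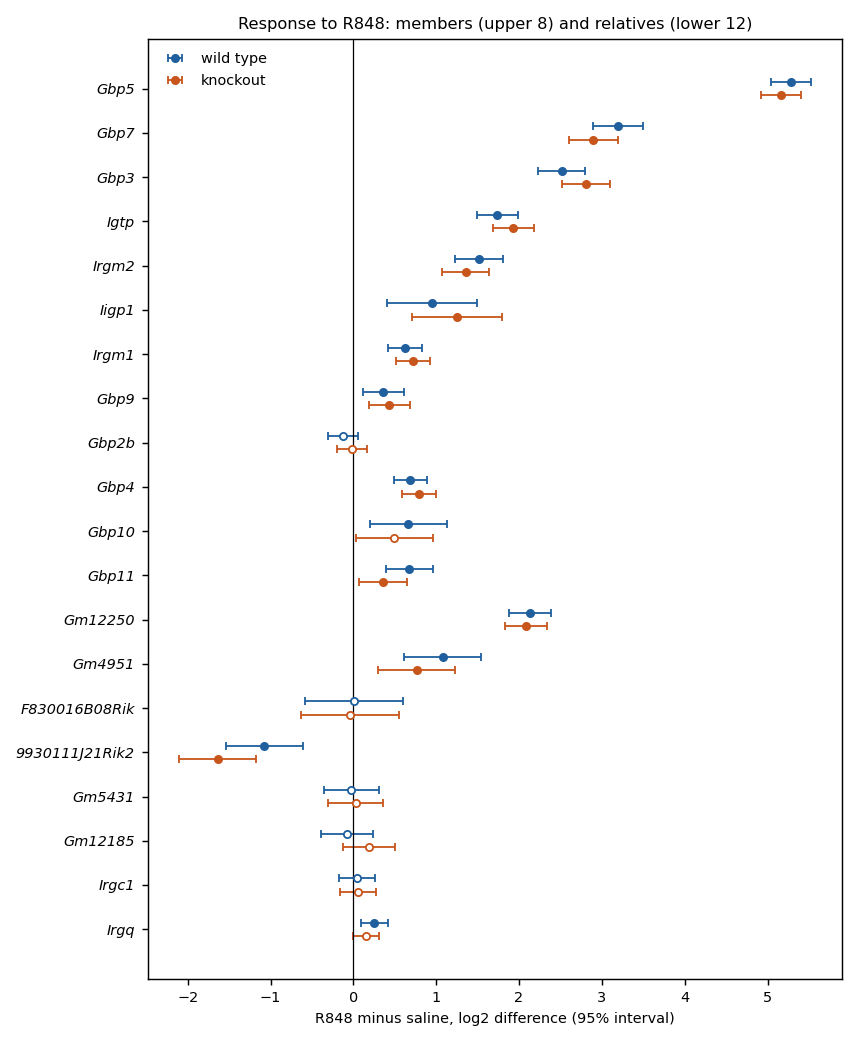
R848 minus saline in wild type and knockout cells, for the 8 tested genes and 12 tested relatives of the same families. Points are log2 differences with 95% intervals from limma. Among the 8 genes, Gbp5 stands apart at 5.28 and 5.16, and Gbp7 and Gbp3 lie between 2.51 and 3.19. Gbp9 is lowest of the 8 at 0.36 and 0.43.

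Ordered by the wild type response, the 8 genes were Gbp5, Gbp7, Gbp3, Igtp, Irgm2, Iigp1, Irgm1 and Gbp9. The 95% intervals of Gbp5 (5.04 to 5.52), Gbp7 (2.89 to 3.49) and Gbp3 (2.23 to 2.80) did not meet, while those of Igtp (1.49 to 1.98) and Irgm2 (1.23 to 1.81) overlapped, as did those of Iigp1 (0.41 to 1.49) and Irgm1 (0.42 to 0.83). By rank among all tested genes, the wild type responses after Gbp5 ran from 55 for Gbp7 through 222 for Igtp to 1517 for Gbp9.

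The question of whether the knockout altered the R848 response was tested as the difference between the 2 responses. None of the 8 genes was called (limma adjusted p = 0.996 for each, 0 of 8 at an unadjusted p under 0.05), against 0.0142% of tested genes called and 4.93% at an unadjusted p under 0.05 in either direction. The knockout response minus the wild type response was 0.30 for Iigp1, with a 95% interval of -0.46 to 1.07, and 0.29 for Gbp3 (-0.11 to 0.70). It was -0.29 for Gbp7 (-0.72 to 0.13), -0.17 for Irgm2 (-0.57 to 0.24) and -0.12 for Gbp5 (-0.46 to 0.22). For Igtp it was 0.19, for Irgm1 0.09 and for Gbp9 0.07. Several of these intervals are wide next to the estimates. The value for Gbp5 also includes wild type saline arrays below the detection limit.

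Knockout cells read higher than wild type cells for every one of the 8 genes in both treatments, by small amounts that did not pass the test within either treatment. In saline the difference was 0.61 for Gbp7 (limma adjusted p = 0.098), 0.55 for Irgm2 (0.107), 0.45 for Gbp5 (0.107), 0.38 for Gbp9 (0.159), 0.36 for Iigp1 (0.598), 0.25 for Gbp3 (0.456), 0.21 for Irgm1 (0.378) and 0.21 for Igtp (0.464). None of the 8 was called, against 0.142% of tested genes called higher; 5 of the 8 passed an unadjusted p under 0.05, against 4.97% of tested genes. The knockout and wild type saline arrays did not overlap for Gbp5, Gbp7, Gbp9 and Irgm2, a separation seen upward in 6.65% of tested genes. The wild type saline mean of Gbp5 was 4.27, or 4.35 with its arrays below the detection limit set to that limit. Against the knockout saline mean of 4.72, its difference is smaller on that basis. With the replicate number as a block Gbp7 was called in saline (limma adjusted p = 0.0355). Irgm2 was called without wild type saline replicate 2 (limma adjusted p = 0.0427), and Gbp5 without knockout saline replicate 3 (limma adjusted p = 0.0435).

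With R848 the difference was 0.66 for Iigp1 (limma adjusted p = 0.447), 0.55 for Gbp3 (0.202), 0.45 for Gbp9 (0.215), 0.41 for Igtp (0.248), 0.38 for Irgm2 (0.397), 0.33 for Gbp5 (0.362), 0.31 for Gbp7 (0.546) and 0.30 for Irgm1 (0.313). None was called, against 0.0568% of tested genes called higher; all 8 passed an unadjusted p under 0.05, against 3.41%. The arrays of the genotypes did not overlap for Gbp3, Gbp5, Gbp9, Irgm1, Irgm2 and Igtp, against 5.35% of tested genes. For Gbp7 and Iigp1 at least 1 knockout array lay within the wild type range.

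Averaged over both treatments, 5 of the 8 genes were called higher in knockout cells, against 0.774% of tested genes. Gbp7 was higher by 0.46 ± 0.099 (limma adjusted p = 0.0341) and Irgm2 by 0.46 ± 0.095 (limma adjusted p = 0.0269). Gbp9 was higher by 0.42 ± 0.081 (limma adjusted p = 0.0224), Gbp3 by 0.40 ± 0.095 (limma adjusted p = 0.0473) and Gbp5 by 0.39 ± 0.08 (limma adjusted p = 0.0257). These are differences of about 1.31-fold to 1.38-fold. That of Gbp5 includes wild type saline arrays below the detection limit. Iigp1 had the largest estimate, 0.51 ± 0.18, and was not called (limma adjusted p = 0.172); Igtp at 0.31 (limma adjusted p = 0.0674) and Irgm1 at 0.26 (limma adjusted p = 0.0677) were not called either.

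**Figure D3:**
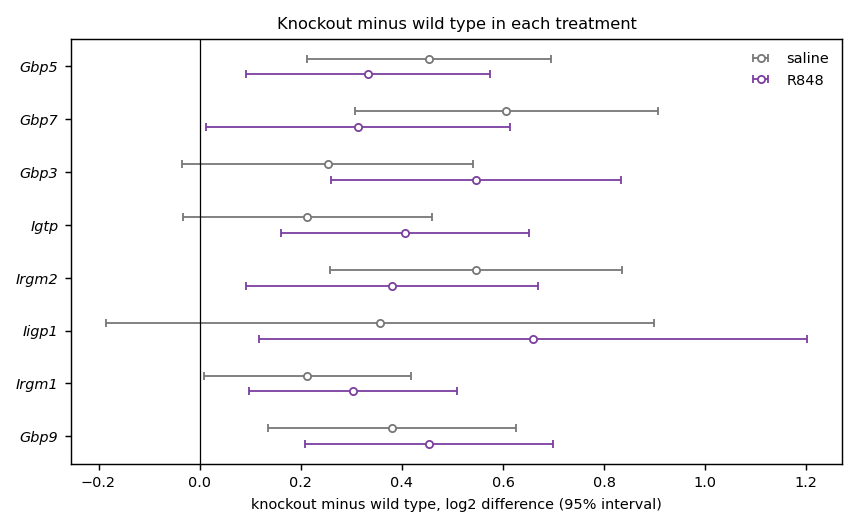
Knockout minus wild type in saline and with R848 for the 8 tested genes, as log2 difference with its 95% interval from limma. All estimates lie above 0, from 0.21 to 0.66, and none passes an adjusted p under 0.05.

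The count of 5 depended on single arrays. Without wild type R848 replicate 2, wild type R848 replicate 3, knockout saline replicate 2 or knockout R848 replicate 2 it was 0, and without wild type saline replicate 3 or knockout saline replicate 1 it was 1. It was 3 without wild type saline replicate 1, knockout R848 replicate 1 or knockout R848 replicate 3, 6 without wild type R848 replicate 1, and 5 when wild type saline replicate 2 or knockout saline replicate 3 was left out. In the latter case Gbp3 was lost (limma adjusted p = 0.055) and Igtp gained (limma adjusted p = 0.0492). With same-numbered arrays treated as correlated pairs it was 2. Neutrophil markers (10 rows, 4 below the limit on all 12 arrays, Ly6g among them) averaged 4.06 to 4.13 in knockout R848 arrays and 3.96 to 4.04 in wild type R848 arrays, and 3.98 to 4.02 against 3.92 to 4.04 in saline. Of 3 neutrophil markers tested, S100a9 was called higher in the knockout average (0.30, limma adjusted p = 0.0375) and 2 were not. The median difference of the 3 was 0.02. Dendritic cell markers (8 rows, 6 above the limit on all 12 arrays) averaged 5.63 to 5.68 in knockout saline and 5.45 to 5.65 in wild type saline, and 5.56 to 5.73 against 5.56 to 5.66 with R848. Their part in the genotype difference was not tested. In these bulk cultures a different share of responding cells and a different amount of RNA per cell cannot be told apart.

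On several arrays the 8 genes deviated from their group means in the same direction. In wild type saline, replicate 2 was above the group mean for all 8 tested genes, by a median of 0.19, while replicates 1 and 3 were above it for 1 gene each. With R848, wild type replicate 1 was above for all 8 (median 0.20) and replicate 2 for 0 of 8 (median -0.13). In the knockout groups, replicate 3 in saline was above for 0 of 8 (median -0.14) and replicate 2 with R848 for all 8 (median 0.18). Single genes deviated by up to 0.56, reached by Iigp1 in knockout R848 replicate 2. The 23 type I interferon-stimulated genes listed for comparison, such as Ifit1 and Rsad2, were above the group mean in 18 of 23 for wild type saline replicate 2, in 20 for wild type R848 replicate 1, in 3 for wild type R848 replicate 2 and in 18 for knockout R848 replicate 2. In knockout saline replicate 3 they were mixed, with 9 above and 14 below. In wild type saline replicate 2, 5 of 12 relatives of these families were above and 6 below. Of 21 JAK, STAT and IRF genes 17 were above and 3 below. The 18 genes led by interferon-gamma were 9 above and 9 below, and the 11 macrophage markers 5 and 5. In knockout R848 replicate 2 the same lists were 11 and 1, 12 and 9, 13 and 5, and 7 and 3. The share of all tested genes above the group mean was not counted, so an array-wide shift was not tested.

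**Figure D4:**
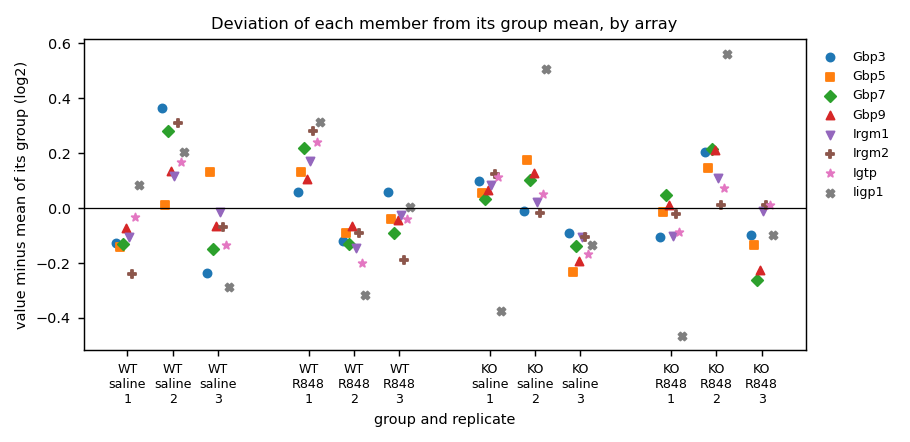
Deviation of each of the 8 tested genes from its group mean on each of the 12 arrays, in log2 units. All 8 points lie above 0 in wild type saline replicate 2, wild type R848 replicate 1 and knockout R848 replicate 2, and none does in wild type R848 replicate 2 or knockout saline replicate 3.

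Knockout replicate 2 was the highest array of its group in both treatments for 4 of the 8 tested genes, Gbp5, Gbp7, Gbp9 and Iigp1. For Gbp3, Irgm1, Irgm2 and Igtp the highest knockout saline array was replicate 1. Iigp1 lies on chromosome 18 near the IRG-like genes Gm4951 and F830016B08Rik, in which replicate 2 was also highest in both knockout groups. The replicate 2 arrays in saline and with R848 read 6.46 and 7.77 for Iigp1, 8.37 and 9.14 for Gm4951, and 6.52 and 6.85 for F830016B08Rik. Gm4841, a further gene there, was below the detection limit. In it replicate 2 was the highest of the knockout saline arrays (3.94) and the lowest of the knockout R848 arrays (4.04). The replicate 2 arrays also had the least Rasgef1b of their knockout groups, and a link between these observations was not tested. The labels do not say whether arrays of 1 number belong together. The share of all tested genes with replicate 2 highest in both knockout groups was not counted. Gbp9 lies on chromosome 5, the chromosome of Rasgef1b, 31 tested genes away from it. Gbp4, Gbp10 and Gbp11 lie 32, 33 and 34 tested genes away. They were not called in the knockout average (limma adjusted p = 0.542, 0.435 and 0.343). A part of this position in the genotype difference was not tested.

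Other genes of these families were described from a list of relatives, of which 14 had a row and 12 were tested. R848 raised 6 of the 12 in wild type cells and 4 in knockout cells, and 1 fell in each, where 23.6% and 26.0% of all tested genes were called lower. Gm12250 (Irgb10), an IRG effector that targets bacterial membranes, rose by 2.14 and 2.08, and was higher in knockout cells by 0.42 ± 0.084 averaged over treatments (limma adjusted p = 0.0245). Its GAS match, TTCTCAGAA, has the same letters as one in Gbp5 and one in Gbp7. In the knockout average Gm12250 was the only one of the 12 relatives called and 11 were not, though 11 of the 12 estimates were positive. Gm4951 rose by 1.08 and 0.76. Gbp4 and Gbp11 are counted among those raised, but their baselines are bounds. Gbp4 was below the detection limit on every saline array and higher with R848 by at least 1.27-fold in wild type and 1.39-fold in knockout cells, taking the limit as baseline. Gbp11 was below it on all wild type saline arrays and above it on 1 of 3 knockout saline arrays, and was higher by at least 1.19-fold and 1.18-fold on the same basis. Gbp10 (0.66, limma adjusted p = 0.0243) and Irgq (0.25, limma adjusted p = 0.0136) passed the test in wild type cells, and read 0.49 (0.0839) and 0.15 (0.126) in knockout cells. 9930111J21Rik2, an IRG-like gene, fell by 1.08 and 1.64. Gbp2b (-0.12 and -0.01), F830016B08Rik (0.00 and -0.04), Gm5431, Gm12185 and Irgc1 were not called in either genotype. Gbp8 and Gm4841 were below the limit, and Tgtp1 and Tgtp2 have only rows they share.

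The rest of the pathway was described from lists of genes, giving the members with the largest differences. For comparison with the counts below, 14.6% of all tested genes rose and 23.6% fell in wild type cells. In knockout cells 15.6% rose and 26.0% fell, and in the knockout average 0.774% were called higher. Of 14 interferon, cytokine and receptor genes tested, R848 raised 6 and lowered 2 in each genotype. In wild type cells Il12b, a subunit of interleukin-12, rose by 4.42, Il27 by 3.31, Il18 by 2.26 and Ifnar1, a chain of the type I interferon receptor, by 0.82. Ifnb1 and Ifng, singled out after their values were seen, gave no rise: Ifnb1 read 3.15 to 3.36 and was below the limit on all 12 arrays, and Ifng read 4.33 to 4.57 with no call in any contrast.

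Of 21 genes of the JAK, STAT and IRF steps, which carry the interferon signal to the promoters, 15 rose and 2 fell in wild type cells, and 14 rose and 1 fell in knockout cells. Socs3, a feedback inhibitor, rose by 4.64 in wild type cells, Batf by 3.07, Jak2 by 2.84 and Usp18, an inhibitor of type I interferon receptor signalling, by 2.73. In the knockout average 3 of the 21 were higher: Stat2 by 0.51, Usp18 by 0.48 and Irf7 by 0.31.

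Of 23 type I interferon-stimulated genes 18 rose and 0 fell in each genotype, led in wild type cells by Ifit1 (2.51), Rsad2 (1.93), Cmpk2 (1.55) and Trim30a (1.30). Averaged over treatments 8 of the 23 were higher in knockout cells, among them Ifit1 by 0.53, Cmpk2 by 0.52, Ifit2 by 0.48 and Rsad2 by 0.44. Of 18 genes led by interferon-gamma 14 rose and 1 fell in each genotype, with the chemokine Cxcl10 at 4.62, the nitric oxide synthase Nos2 at 4.53, Icam1 at 3.25 and Cd274 at 3.04 in wild type cells. In the knockout average 3 of these 18 were higher, H2-Ab1 by 0.39, H2-Aa by 0.36 and Tap1 by 0.30.

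Genes that act with GBPs and IRGs were mixed. Of 13 genes of the caspase-11 and AIM2 inflammasome routes, to which GBPs give access, 10 rose and 2 fell in each genotype, with Il1b, which was below the limit on all saline arrays, higher by at least 7.79 (log2, at least 221-fold against that limit), Ifi205 at 5.25, Nlrp3 at 2.87 and Casp4 (caspase-11) at 2.36 in wild type cells. In the knockout average 3 of the 13 were higher: Ifi204 by 0.40, Zbp1 by 0.36 and Il18 by 0.31. Of 11 genes of vacuole ubiquitin tagging 5 rose and 2 fell in wild type cells and 5 rose and 4 fell in knockout cells, with Trim21 at 1.37 and Sqstm1, Rnf31 and Rabgef1 at 1.08, 1.08 and 0.78 in wild type cells.

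Of 15 genes of the ATG8 conjugation machinery, which IRGs need to reach vacuoles, 2 rose and 4 fell in wild type cells and 2 rose and 6 fell in knockout cells, where 14.6% of all tested genes rose and 23.6% fell in wild type cells and 15.6% and 26.0% in knockout cells, so in wild type cells the list lay near the background. Gabarapl1 changed by -0.85, Atg9a by 0.81, Atg7 by -0.64 and Atg14 by -0.59 in wild type cells. Of 8 genes of prenylation, the lipid modification that anchors Gbp5, 1 rose and 1 fell in each genotype, not above those background shares. Pggt1b, a subunit of a prenyltransferase, rose in both, by 0.98 in wild type cells; the gene that fell was Icmt in wild type cells (-0.22) and Fnta in knockout cells (-0.35). Of 13 other dynamin-like genes 4 rose and 2 fell in wild type cells and 5 rose and 2 fell in knockout cells, with the antiviral Mx1 at 3.01, Mx2 at 2.72, the membrane-trafficking Ehd1 at 2.48 and Ehd4 at -1.43 in wild type cells. Mx1 was higher in the knockout average by 0.69 (limma adjusted p = 0.0074). In the ATG8, ubiquitin and prenylation lists 0 genes were called higher in the knockout average, against 0.774% of all tested genes, a share at which lists of this length may hold no call.

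The genes with the profile most like the median profile of the 8 tested genes were found by the root-mean-square difference over the 12 arrays, each gene centred on its own mean. They were Helz2 (0.0934), Rsad2 (0.137), Il15 (0.165), Zbp1 (0.171) and Cfb (0.173). Helz2 rose by 1.64 in wild type and 1.76 in knockout cells, and Il15, a cytokine for natural killer cells, by 1.46 and 1.77. Among the 8 genes themselves Igtp lay nearest to that profile (0.113) and Gbp5 farthest (1.76).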

How the data were processed

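Expression was measured on 12 Affymetrix Mouse Gene 2.1 ST arrays. Per the submitters' processing notes, Affymetrix Expression Console and RMA made the values; neither version is given in the sources used here. Values as deposited are log2 intensities to 2 decimals, between 2.15 and 12.85 over 34472 rows. RMA makes the arrays' distributions alike and compresses differences of dim rows. Of the rows, 23521 had 1 gene symbol, 1814 several and 9137 none in the platform annotation; only the first were used, at the row of highest mean for each of 22180 genes. The 14079 genes above the 40th percentile of an array on at least 3 arrays were fitted with limma 3.58.1 in R 4.3.3 (lmFit, eBayes), 1 mean per group, and adjusted by the Benjamini-Hochberg method over all of them, with a threshold of 0.05. The script was tested on simulated data.

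Array scans and dates were not used here. The replicate numbers in the titles are shared by the groups. Deviations of same-numbered arrays correlated at -0.06 to 0.25 between treatments in wild type cells. In knockout cells they correlated at 0.17 to 0.28, which pairs the arrays by the rule of every correlation over 0.1. The main fit did not use this pairing and took the arrays as independent. With correlated pairs 2 of the genes followed were called in the knockout average, against 5 in the main fit. The alternatives were no or a stricter filter, trend and robust eBayes, median centring, cyclic loess, all rows of a gene averaged, only the arrays compared, the replicate block, correlated pairs and leaving out each array. Centring over rows of 1 symbol and over tested genes was added after seeing the data. The genes and lists were chosen with earlier results of these data known. Text names the 10 genes, their relatives, Rasgef1b, up to 4 genes a list with the largest differences, and the 5 genes most alike in profile. Promoter windows came from RefSeq (GRCm38.p6) and were searched in Python 3.11.15.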

Additional observations from a re-analysis of the deposited data

How the results depend on the processing

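The 8 genes were called higher with R848 in both genotypes under every setting run, apart from the leave-one-out fits in wild type cells (7 to 8 called). Averaged over treatments, the main count of 5 called higher in knockout cells was 2 with correlated pairs, 0 to 6 over the leave-one-out fits, 4 without a filter or with median centring (over all rows or rows of 1 symbol), and 7 with cyclic loess or centring over tested genes. In saline the count was 0, and 1 with the replicate block (Gbp7) and 0 to 1 over the leave-one-out fits; the block changed no other call. The cause of these changes was not tested. Centring over tested genes moved the median R848 change of all tested genes in wild type cells from -0.02 to 0.11 (0.12 in knockout cells) and the share of higher calls from 38.3% to 62.2%; the 8 genes kept their direction under it. Among all tested genes called in the knockout average, 43.4% were higher, against 29.8% with median centring, 57.5% with cyclic loess and 65.8% with centring over tested genes. The averaged Rasgef1b difference of -0.68 (limma adjusted p = 0.036) was no longer called with trend and robust eBayes (-0.68, limma adjusted p = 0.0643) or correlated pairs (-0.68, limma adjusted p = 0.054), and ranged from -0.76 to -0.55 over the leave-one-out fits, 8 of 12 of which lost the call (limma adjusted p = 0.0502 to 0.098): those without 1 of the 6 wild type arrays, knockout saline replicate 2 or knockout R848 replicate 2. The differences between the 2 R848 responses changed sign over the leave-one-out fits for Gbp9 (-0.033 to 0.19) and Rasgef1b (-0.21 to 0.325), neither called. Over all tested genes, the count called higher in knockout cells in saline was 20, and 6 to 48 over the alternatives other than leave-one-out; with R848 it was 8 (6 to 16) and averaged 109 (59 to 177), and 36 to 109 over the leave-one-out fits, lowest without wild type saline replicate 3 (68), wild type R848 replicate 2 (36) or 3 (43), knockout saline replicate 1 (71) or 2 (40) and knockout R848 replicate 2 (43). The count raised by R848 was 2062 in wild type and 2193 in knockout cells, and 3821 and 4402 with centring over tested genes.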
